A study of Rattus norvegicus with 13 samples.

Results

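The genes described here are 37 markers of T, B and NK lymphocytes in a rat model of intrahepatic cholangiocarcinoma, a cancer of the bile ducts inside the liver. They were chosen by symbol, with earlier results of these data known. Counts of them set against all genes are therefore descriptions and not tests of the list. 33 of them were named on the array among 14217 genes, and each was read from 1 probe set, the one with the highest mean over all 13 arrays. The other 4 (Cd27, Foxp3, Ccr7 and Cd79a) had no probe set under their symbol in the annotation used and were not analysed here.

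RNA was hybridised to single-colour Affymetrix rat arrays. The 4 tumours grew in young adult male Fischer 344 rats from BDEsp cells, rat cholangiocytes that had transformed spontaneously and were placed into the bile duct, and were snap-frozen. The tumour tissue therefore holds whatever cells the host supplied. 1 array held the epithelial cells in co-culture with the fibroblastic cells, and 1 array held the fibroblastic cells in co-culture with the epithelial cells. The lines grown alone were represented by 3 arrays of the tumour-derived epithelial line, clone H10, and 4 arrays of the tumour-derived, α-SMA positive fibroblastic line, clone E4. All cultures were kept in gels of rat tail collagen type I, each line was a single clone, and all material was of the Fischer 344 background. The labels name no immune cell in any culture, so the 9 culture arrays give the level at which each lymphocyte probe set reads without lymphocytes having been supplied.

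T cells recognise antigen through a receptor whose signal is passed on by the CD3 and zeta chains, with the coreceptor CD4 or CD8 binding the presenting molecule. Cytotoxic T cells and NK cells kill by releasing perforin, which opens the target membrane, and granzymes, proteases that enter through it. B cells carry a separate antigen receptor with its own signalling chains. In bile duct cancer these cells lie in and around a dense fibroblastic stroma.

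The deposited values were on a log2 scale. Array medians over all probe sets were 6.15 to 6.25. Ptprc, the gene of the pan-leukocyte antigen CD45, read 7.30, 7.42, 6.93 and 7.31 in tumours 1 to 4 and no more than 4.59 on any culture array. Line identity was checked by Krt19 and Epcam, epithelial genes, and Col1a1 and Postn, matrix genes of fibroblasts. Krt19 averaged 14.07 in the epithelial line, against 4.18 in the fibroblastic line, and Postn averaged 3.87 in the epithelial line, against 14.05 in the fibroblastic line. Both co-culture arrays carried both sets: the epithelial co-culture array read 12.47 for Epcam and 12.61 for Col1a1, and the fibroblastic co-culture array read 11.96 and 13.04. These 2 arrays correlated at r = 0.9867 over all probe sets. They are therefore treated as 2 arrays of mixed cultures, and each result is given for both. Alb, the hepatocyte gene for albumin, read 14.51, 7.50, 13.94 and 14.46 in tumours 1 to 4, and the mean of 20 hepatocyte genes was 12.50, 5.31, 10.69 and 12.74. Tumour 2 thus stood apart in its hepatocyte transcripts, and counts below are also given without tumours 1 and 4, the highest in them.

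In limma's fit, 26 of the 33 lymphocyte genes were higher in tumours than in the epithelial line, 30 were higher than in the fibroblastic line, and 26 were higher than in both. None was lower than in either line. Of the 14217 genes, 18.9% were called higher and 33.2% lower than in the epithelial line, and 27.3% higher and 33.5% lower than in the fibroblastic line. Over all genes, 12.0% were higher and 17.9% lower than in both lines. These shares of all genes stand beside the counts for groups of genes below. In 27 of the 33 genes every tumour lay above all 9 culture arrays, against 10.3% of all genes. The median difference between tumours and the epithelial line was 1.52 on the log2 scale for the lymphocyte genes and -0.17 for all genes. Against the fibroblastic line the medians were 1.79 and -0.07. The 2 tumour comparisons use the same 4 tumour arrays and one estimate of spread, so they are not independent of each other. The labels do not say whether replicate arrays came from separate animals or cultures, so that p-values cover no more than the scatter among the arrays at hand. Fibroblastic arrays 1 and 3 correlated at r = 0.9867 and arrays 2 and 4 at r = 0.9887. Other pairs of that line gave 0.9487 to 0.9626. The fit took all 4 as separate replicates. In tissue, fewer cells of a type and less RNA per cell cannot be told apart.

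At least 2-fold differences over both lines were reached by 19 of the 33, against 5.62% of all genes. Leaving out tumours 1 and 4 left 22 genes higher than both lines, and tumour 2 as the only tumour left 19. With 1 tumour array, that fit takes its spread from the lines alone. The genes lost without tumours 1 and 4 were Cd247, Cd6, Zap70 and Ms4a1. They were no longer called over the epithelial line (0.72, 0.46, 0.46 and 0.62), and Cd247 was not called over the fibroblastic line either (0.60). With each array centred on its median, 52.2% of the calls over all genes against the epithelial line were upward, against 36.2% as deposited, and 57.1% against the fibroblastic line, against 44.9% as deposited. Under that scaling 29 of the lymphocyte genes were higher than both lines.

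**Figure D1:**
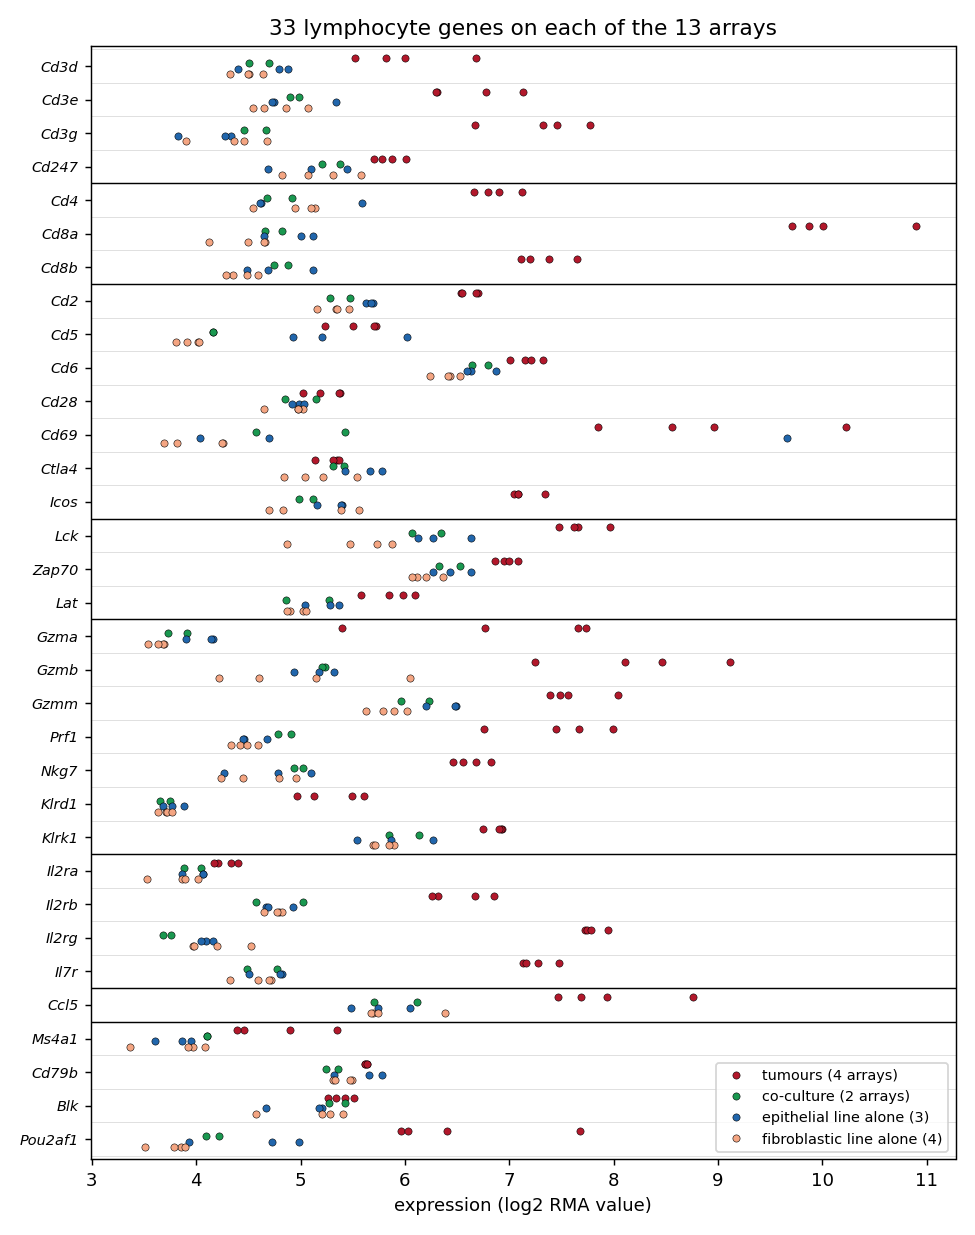
Level of each of the 33 lymphocyte genes on the log2 RMA scale (horizontal axis), 1 point per array, with tumours in red above co-culture in green, the epithelial line in blue and the fibroblastic line in orange. Black lines part the role groups. In 27 genes the 4 tumours lie to the right of all 9 culture arrays, and levels are to be compared along a row only, since each gene has its own probe set.

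The T cell receptor complex was higher in tumours throughout. All 4 of its measured genes were called over both lines, against 12.0% of all genes. Cd3g, the gamma chain of CD3, read 7.32, 7.46, 6.67 and 7.77 in tumours 1 to 4, against 4.67 and 4.46 in the epithelial and fibroblastic co-culture arrays, 3.83, 4.33 and 4.28 in the epithelial line and 4.68, 4.36, 4.46 and 3.90 in the fibroblastic line. The lowest tumour was 1.99 above the highest culture array, so the groups did not overlap. The log2 difference was 3.16 ± 0.26 (SE) over the epithelial line (adjusted p = 8.74e-06), 2.95 ± 0.24 over the fibroblastic line (adjusted p = 3.04e-06) and 2.74 ± 0.30 over the mean of the co-culture arrays (adjusted p = 8.64e-05).

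Cd3e, the epsilon chain, read 6.78, 6.31, 6.30 and 7.13 in the tumours, against 4.90 and 4.99 in co-culture, 4.75, 4.73 and 5.34 in the epithelial line and 4.65, 4.54, 5.07 and 4.86 in the fibroblastic line. It was 3.23-fold higher than in the epithelial line and 3.60-fold higher than in the fibroblastic line. Cd3d, the delta chain, read 5.52, 6.0, 5.82 and 6.68 in the tumours, against 4.51 and 4.70 in co-culture, 4.79, 4.40 and 4.88 in the epithelial line and 4.51, 4.50, 4.64 and 4.32 in the fibroblastic line, a 2.49-fold and a 2.85-fold difference over the lines. All 3 CD3 genes read highest in tumour 4. In the rat annotation these 3 genes are direct neighbours, with 0 protein-coding genes between them. Cd247, the zeta chain, differed least in this group, by 0.77 ± 0.21 over the epithelial line (adjusted p = 0.0114) and 0.65 ± 0.19 over the fibroblastic line (adjusted p = 0.0145), and its tumour levels of 5.70 to 6.01 cleared the highest culture array by 0.12. It was not called against co-culture (0.55 ± 0.24, adjusted p = 0.10), and quantile normalization ended its calls over both lines, at 0.29 and 0.18. Its second probe set differed by more, 0.85 and 1.17 over the lines and 0.98 over co-culture (adjusted p = 0.00159), and the mean of its probe sets was called over co-culture too (0.77, adjusted p = 0.00668).

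The coreceptors held the widest difference of all 33 genes. Cd8a, the alpha chain of CD8, which in rats is carried by cytotoxic T cells and by NK cells, read 9.71, 10.90, 10.01 and 9.87 in tumours 1 to 4. In culture it read 4.66 and 4.82 in co-culture, 4.65, 5.00 and 5.12 in the epithelial line and 4.66, 4.12, 4.65 and 4.50 in the fibroblastic line. Every tumour was at least 4.59 above every culture array. This amounted to 36.8-fold over the epithelial line (5.20 ± 0.27, adjusted p = 2.35e-07) and 49.8-fold over the fibroblastic line (5.64 ± 0.25, adjusted p = 4.04e-08). The other probe sets of Cd8a were higher by 5.32 and 2.10 over the epithelial line, so the size of the difference depends on the probe set and its direction does not.

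Because Cd8a led the list, its promoter is shown, the 250 bases before and 50 bases after the gene's start (RefSeq, GRCr8, chr4:104923866-104924165, plus strand). It held none of the letters searched for in all promoters further on.
Cd8a: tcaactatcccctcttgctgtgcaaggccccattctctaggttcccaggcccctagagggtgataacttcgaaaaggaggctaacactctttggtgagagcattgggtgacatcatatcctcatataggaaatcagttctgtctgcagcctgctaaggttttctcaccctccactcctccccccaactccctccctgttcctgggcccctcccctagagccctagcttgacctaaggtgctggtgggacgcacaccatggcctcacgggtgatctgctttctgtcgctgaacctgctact

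Cd8b, the beta chain, is the direct neighbour of Cd8a on the chromosome and is largely a T cell gene. It read 7.11, 7.65, 7.20 and 7.38 in the tumours, against 4.75 and 4.88 in co-culture, 4.69, 4.49 and 5.12 in the epithelial line and 4.35, 4.29, 4.49 and 4.59 in the fibroblastic line. The log2 differences were 2.57 ± 0.18 and 2.90 ± 0.16 over the lines (adjusted p = 2.44e-06 and 2.27e-07). Both CD8 chains read highest in tumour 2 and lowest in tumour 1.

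Cd4, the coreceptor of helper T cells, is also carried by macrophages in rats. Its levels were 6.90, 6.80, 6.66 and 7.12 in the tumours, against 4.92 and 4.68 in co-culture, 4.62, 4.61 and 5.59 in the epithelial line and 5.14, 4.54, 4.95 and 5.10 in the fibroblastic line. It was 3.82-fold over the epithelial line and 3.83-fold over the fibroblastic line (adjusted p = 0.000151 and 4.17e-05). Of 20 macrophage genes, 19 were also higher in tumours than in both lines, against 12.0% of all genes. Among them were the complement genes C1qa, C1qb and C1qc. The mean of the 20 was 9.50 to 10.02 in tumours and 4.97 to 5.64 on culture arrays. Cd68, another macrophage gene, read 10.17 to 10.76 in tumours and at most 6.74 in culture. The part of macrophages in the Cd4 signal was not tested.

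**Figure D2:**
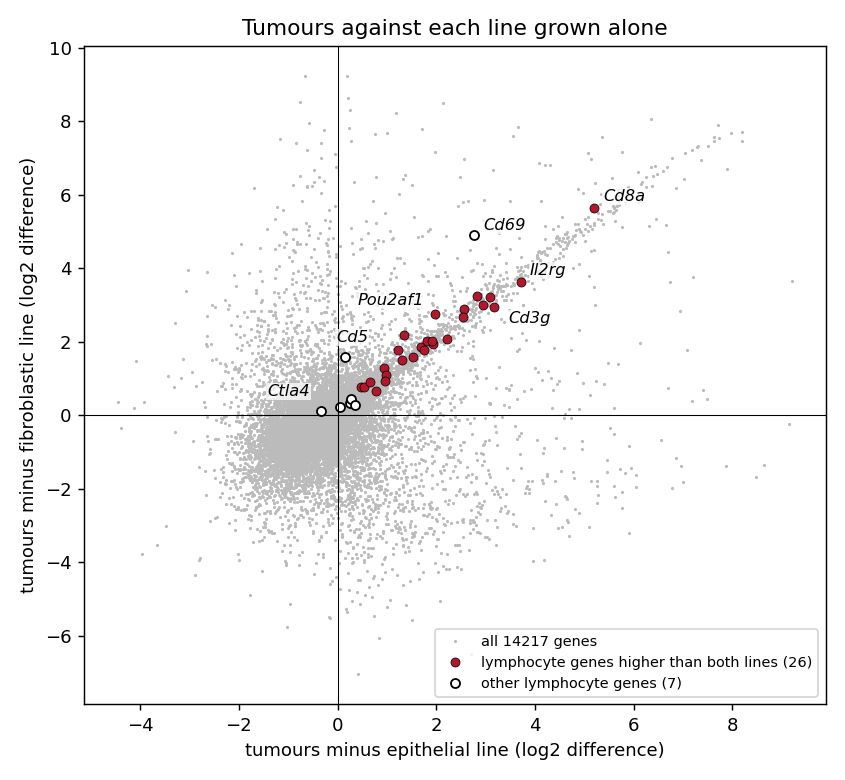
Log2 difference of tumours minus the epithelial line (horizontal axis) against tumours minus the fibroblastic line (vertical axis) for all 14217 genes in grey, with the 26 lymphocyte genes called higher than both lines as filled points and the other 7 as open points. Both axes share the 4 tumours. Cd8a lies farthest out at 5.20 and 5.64, and in the values as deposited Ctla4 is the only lymphocyte gene left of 0, at -0.33 and 0.13.

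Surface and costimulatory molecules were mixed. 3 of the 7 measured were higher in tumours than in both lines, 6 were higher than in the fibroblastic line, and Ctla4 was in neither count. Over all genes these shares were 12.0% and 27.3%. Icos, a costimulatory receptor of activated T cells, read 7.34, 7.08, 7.05 and 7.08 in the tumours, against 5.12 and 4.99 in co-culture, 5.40, 5.16 and 5.39 in the epithelial line and 4.70, 4.83, 5.39 and 5.56 in the fibroblastic line. It was 3.54-fold and 4.06-fold over the lines (adjusted p = 6.97e-05 and 8.06e-06).

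Cd2, an adhesion molecule of T and NK cells, was tight in the tumours at 6.70, 6.54, 6.55 and 6.68, against 5.47 and 5.28 in co-culture, 5.63, 5.69 and 5.68 in the epithelial line and 5.46, 5.34, 5.16 and 5.35 in the fibroblastic line. Its difference was 0.95 ± 0.11 over the epithelial line (adjusted p = 7.48e-05) and 1.29 ± 0.10 over the fibroblastic line (adjusted p = 1.96e-06). Cd6, a T cell surface protein that binds ALCAM, read 7.15, 7.32, 7.01 and 7.21 in the tumours, against 6.80 and 6.64 in co-culture, 6.63, 6.60 and 6.87 in the epithelial line and 6.43, 6.53, 6.24 and 6.41 in the fibroblastic line. The gap between the lowest tumour and the highest culture array was only 0.13, and its call against co-culture (0.45 ± 0.14, adjusted p = 0.0331) was lost without tumour 1, without tumour 2 or without tumour 4, against either co-culture array alone, and with trend and robust moderation.

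Cd28, Ctla4 and Icos follow each other on the chromosome and gave unlike values. Cd28, the main costimulatory receptor of naive T cells, read 5.02 to 5.38 in tumours and 4.65 to 5.15 in culture, and was called over the fibroblastic line (0.33 ± 0.12, adjusted p = 0.0364) and not over the epithelial line. The call was lost without tumour 1, tumour 2, tumour 3 or fibroblastic array 4, and quantile normalization turned its sign, to -0.11. Over the epithelial line it was called with a replicate block (0.34, adjusted p = 0.0472) and after median centring (0.46, adjusted p = 0.0179), and median centring called it over co-culture too (0.44, adjusted p = 0.0469). Ctla4, an inhibitory receptor, read 5.35, 5.37, 5.14 and 5.31 in the tumours, against 5.42 and 5.31 in co-culture, 5.67, 5.43 and 5.78 in the epithelial line and 5.54, 4.84, 5.22 and 5.04 in the fibroblastic line. Its tumour levels lay within the culture range. It was not called in either direction (-0.33 ± 0.17, adjusted p = 0.118, and 0.13 ± 0.15, adjusted p = 0.475), though after quantile normalization it was called lower than in the epithelial line, at -0.83. Cd5, a T cell gene next to Cd6, was at 5.50, 5.72, 5.23 and 5.70 in the tumours, but also at 5.21, 4.93 and 6.02 in the epithelial line, and at 4.16 in each co-culture array and 4.02, 3.81, 3.91 and 4.03 in the fibroblastic line. It was higher than in the fibroblastic line (1.60 ± 0.21, adjusted p = 0.000103) and overlapped with the epithelial line (0.15 ± 0.23, adjusted p = 0.603).

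Cd69, an early activation marker, varied most. It read 7.85, 8.56, 10.23 and 8.96 in tumours 1 to 4, and 5.43 and 4.57 in the epithelial and fibroblastic co-culture arrays. Epithelial arrays 1 and 2 read 4.04 and 4.70, but epithelial array 3 read 9.66, while the fibroblastic line read 3.82, 3.69, 4.26 and 4.25. A single array of a pure line thus reached the tumour range. Against the fibroblastic line the difference was 4.90 ± 1.02 (adjusted p = 0.00196), and against the epithelial line it was 2.77 ± 1.11 (adjusted p = 0.0563). It was called over the epithelial line with a replicate block (2.72, adjusted p = 0.0296), after quantile normalization (2.92, adjusted p = 0.0457) and after median centring (2.96, adjusted p = 0.0464). Without epithelial array 3 the comparison with the epithelial line gave 4.53 (adjusted p = 0.000217), and 28 in place of 26 lymphocyte genes were higher than in that line, Cd5 among them (0.47, adjusted p = 0.0423).

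Across all genes, Cd69 had the largest excess on epithelial array 3, 5.28 above the mean of arrays 1 and 2 of that line. The next were Cxcl11 (4.83), a chemokine, Nr4a1 (4.66), an immediate early gene, Cxcl10 (4.14), a chemokine, and Atf3 (3.84), a stress-response factor. Below these came Depp1 (3.81), Cxcl2 (3.59), Egr2 (3.42), Cldn8 (3.26), Cxcl1 (3.25) and Ccl20 (3.23). The immediate early genes Fosb (3.20) and Fos (3.09) followed. Cxcl11 and Cxcl10 read highest of all arrays there, at 10.22 and 11.70. Fos, Fosb and Nr4a1 also read high on some arrays with low Cd69, and whether their levels are linked to that of Cd69 was not tested. Fos read 13.37 and Fosb 11.46 in epithelial co-culture, where Cd69 read 5.43. Nr4a1 read 12.56 and 12.93 on fibroblastic arrays 2 and 4, where Cd69 read 3.69 and 4.25. Of the 33 lymphocyte genes, 24 (72.7%) were above the mean of arrays 1 and 2 on array 3, against 48.6% of all genes, with a median of 0.22, against -0.01 for all genes. After Cd69 came Cd4 (0.97), Cd5 (0.95), Pou2af1 (0.66), Cd3e (0.61) and Nkg7 (0.57), ranks 222, 238, 619, 746 and 875 of all genes. Cd8b was higher by 0.54, Cd8a by 0.29, Cd3g by 0.20 and Cd2 by 0.02. Prf1 was at -0.12, Lat at -0.29 and Cd79b, the lowest of the 33, at -0.40. With 1 such array these excesses have no test.

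**Figure D3:**
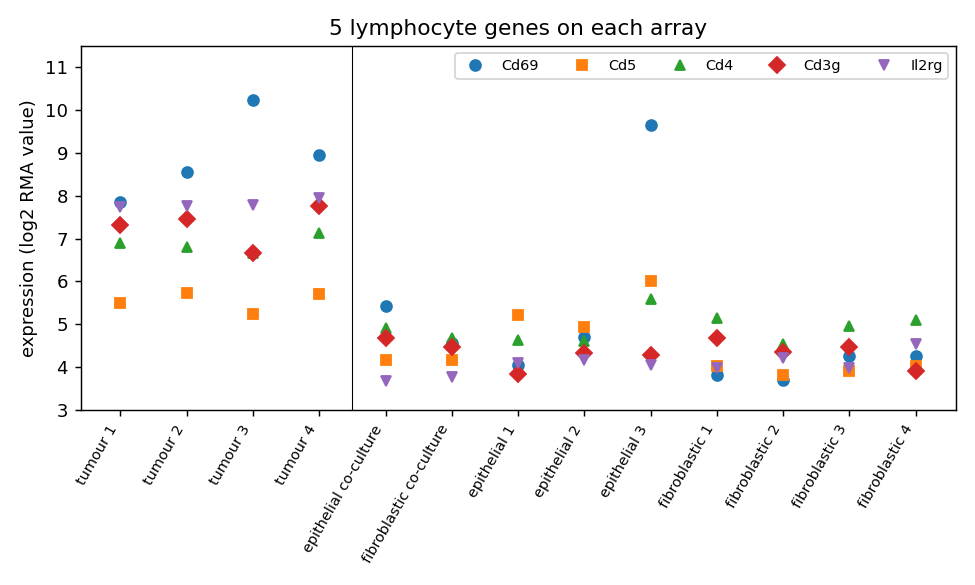
Levels of Cd69, Cd5, Cd4, Cd3g and Il2rg on the log2 RMA scale (vertical axis) on each of the 13 arrays (horizontal axis), tumours left of the line and cultures right of it. Cd69 reaches 9.66 on epithelial array 3, where Cd3g reads 4.28 and Il2rg 4.05.

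All 3 measured genes of T cell receptor signalling were higher in tumours than in both lines, against 12.0% of all genes. Lck, the kinase that starts the signal, read 7.66, 7.48, 7.62 and 7.97 in the tumours, against 6.07 and 6.35 in co-culture, 6.63, 6.13 and 6.27 in the epithelial line and 4.87, 5.47, 5.88 and 5.73 in the fibroblastic line. It was 2.53-fold over the epithelial line and 4.57-fold over the fibroblastic line (adjusted p = 0.000989 and 1.19e-05). Zap70, the kinase that docks on CD3 and zeta, read 7.08, 6.86, 6.95 and 7.00 in the tumours, against 6.53 and 6.33 in co-culture, 6.43, 6.27 and 6.63 in the epithelial line and 6.12, 6.07, 6.37 and 6.20 in the fibroblastic line. Its difference of 0.53 ± 0.13 over the epithelial line (adjusted p = 0.00533) came from the probe set with the higher mean. Without tumours 1 and 4 that call was lost (0.46, adjusted p = 0.0587). The second probe set of Zap70 differed by 1.37. Over the mean of the co-culture arrays Zap70 differed by 0.54, and over the epithelial co-culture array alone by 0.45. Lat, the adaptor that Zap70 phosphorylates, read 5.85, 5.98, 5.58 and 6.10 in the tumours, against 4.86 and 5.27 in co-culture, 5.28, 5.37 and 5.04 in the epithelial line and 4.90, 5.02, 4.87 and 5.05 in the fibroblastic line. The difference for Lat over the epithelial line (0.65 ± 0.14, adjusted p = 0.00371) was reduced to 0.17 and no longer called after quantile normalization, and its call over co-culture was lost then too (0.51, adjusted p = 0.0556).

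Cytotoxic granule and NK receptor genes were higher in tumours than in both lines in 7 of 7, against 12.0% of all genes. Over the mean of the co-culture arrays 7 of 7 were higher too, against 11.7% of all genes. Gzmb, granzyme B, read 7.25, 8.11, 9.12 and 8.46 in tumours 1 to 4, against 5.23 and 5.21 in co-culture, 5.32, 4.94 and 5.18 in the epithelial line and 5.15, 4.60, 6.05 and 4.22 in the fibroblastic line. It was 8.48-fold and 9.38-fold over the lines (adjusted p = 0.000409 and 9.67e-05). A further probe set that names Gzmb together with another locus was left out, and whether related granzymes hybridised to the probe set used was not tested.

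Prf1, perforin, read 6.76, 7.45, 7.99 and 7.67 in the tumours, against 4.78 and 4.91 in co-culture, 4.46, 4.68 and 4.45 in the epithelial line and 4.33, 4.42, 4.49 and 4.59 in the fibroblastic line. It was 7.68-fold and 8.07-fold over the lines (adjusted p = 7.09e-06 and 1.29e-06). Gzma, granzyme A, read 5.40, 6.77, 7.74 and 7.66 in the tumours, against 3.73 and 3.91 in co-culture, 4.16, 3.90 and 4.14 in the epithelial line and 3.69, 3.54, 3.68 and 3.63 in the fibroblastic line. It was 7.10-fold and 9.56-fold over the lines (adjusted p = 0.000599 and 7.85e-05). Tumour 1 was the lowest of the 4 tumours for all 3 genes and still lay above every culture array.

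The promoters of Gzmb and Prf1, whose products act together, are shown because both genes followed the same order over the tumours. That order was picked out after the values were seen, and its relation to the promoters was not tested. Capitals mark the letters TGTGGT or their complement ACCACA, the core that RUNX factors bind, and AGGAAG or its complement CTTCCT, a core that ETS factors bind. The Gzmb window is chr15:34462420-34462719 on the minus strand and the Prf1 window chr20:29788790-29789089 on the plus strand (RefSeq, GRCr8).
Gzmb: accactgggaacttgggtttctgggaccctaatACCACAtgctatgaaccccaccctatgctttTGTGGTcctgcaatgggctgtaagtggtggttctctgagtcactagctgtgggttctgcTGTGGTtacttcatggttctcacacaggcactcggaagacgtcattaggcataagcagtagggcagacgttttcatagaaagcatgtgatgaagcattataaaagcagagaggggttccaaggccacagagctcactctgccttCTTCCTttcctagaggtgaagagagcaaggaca
Prf1: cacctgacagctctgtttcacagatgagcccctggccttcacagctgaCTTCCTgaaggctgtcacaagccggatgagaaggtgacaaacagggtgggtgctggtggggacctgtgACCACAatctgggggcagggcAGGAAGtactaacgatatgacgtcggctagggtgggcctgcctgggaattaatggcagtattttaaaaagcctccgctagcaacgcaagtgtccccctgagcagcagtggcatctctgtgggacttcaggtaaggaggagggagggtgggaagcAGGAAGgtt

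Of the 33 lymphocyte genes, 22 had a promoter in the RefSeq table. TGTGGT occurred on either strand in 11 of these 22, among them Gzmb, Prf1, Gzma, Lck and Il7r, and in 16.9% of all 27457 promoters of the same length. AGGAAG occurred in 15 of the 22, among them Cd3d, Cd3e, Cd3g, Zap70 and Lat, and in 34.3% of all promoters. Both were present in 6 of the 22, and no 2 matches overlapped. These counts describe letters in a window and not binding.

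The remaining killer cell genes had smaller differences over the lines. Nkg7, a granule membrane protein, read 6.46 to 6.83 in tumours and 4.24 to 5.10 in culture, a 3.78-fold and a 4.07-fold difference over the lines. Gzmm, granzyme M, read 7.49, 7.56, 7.39 and 8.04 in the tumours, against 5.96 and 6.23 in co-culture, 6.49, 6.48 and 6.20 in the epithelial line and 5.63, 5.79, 6.02 and 5.90 in the fibroblastic line (2.35-fold and 3.45-fold). Klrd1, the CD94 chain of NK receptors, read 4.97 to 5.61 in tumours and 3.63 to 3.88 in culture, so that its low level was still set apart by 1.09 from the highest culture array. Klrk1, the activating receptor NKG2D and the neighbour of Klrd1, read 6.75 to 6.93 in tumours and 5.54 to 6.27 in culture (1.98-fold and 2.13-fold). Its difference was 0.88 over the mean of the co-culture arrays and 0.73 over the epithelial co-culture array alone.

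Among cytokine receptors, 3 of 4 were higher in tumours than in both lines, against 12.0% of all genes. Il2rg, the common gamma chain shared by the receptors of several interleukins, showed a wide and even difference: 7.73, 7.75, 7.78 and 7.95 in the tumours, against 3.68 and 3.76 in co-culture, 4.09, 4.16 and 4.05 in the epithelial line and 3.97, 4.20, 3.98 and 4.53 in the fibroblastic line. It was 13.1-fold and 12.4-fold over the lines (adjusted p = 2.81e-08 and 1.27e-08). Myeloid cells also use this chain. Il7r, the receptor chain for the survival factor interleukin 7, read 7.48, 7.13, 7.28 and 7.16 in the tumours, against 4.77 and 4.49 in co-culture, 4.51, 4.82 and 4.80 in the epithelial line and 4.59, 4.32, 4.72 and 4.70 in the fibroblastic line. Its 2 probe sets were higher by 2.55 and 2.54 over the epithelial line.

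Il2rb, the beta chain of the interleukin 2 and 15 receptors, read 6.67, 6.32, 6.26 and 6.85 in the tumours, against 4.57 and 5.02 in co-culture, 4.93, 4.67 and 4.69 in the epithelial line and 4.65, 4.79, 4.82 and 4.77 in the fibroblastic line. It was 3.39-fold and 3.41-fold over the lines (adjusted p = 1.42e-05 and 2.81e-06). The alpha chain differed from its partners. Il2ra, which makes the interleukin 2 receptor high in affinity on activated and regulatory T cells, read 4.17 to 4.40 in tumours and 3.53 to 4.07 in culture. It was called over the fibroblastic line (0.45 ± 0.13, adjusted p = 0.0102) and not over the epithelial line (0.27 ± 0.14, adjusted p = 0.116) or co-culture (0.31 ± 0.16, adjusted p = 0.15). Quantile normalization ended the call over the fibroblastic line (0.19, adjusted p = 0.246), and median centring made it called over the epithelial line (0.47, adjusted p = 0.016) and co-culture (0.51, adjusted p = 0.0279).

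Ccl5, a chemokine made by activated T and NK cells among others, was the only gene measured of its group of 2. It read 7.47, 7.94, 7.69 and 8.76 in the tumours, against 5.70 and 6.12 in co-culture, 5.48, 5.74 and 6.05 in the epithelial line and 5.69, 5.68, 6.38 and 5.74 in the fibroblastic line. It was 4.63-fold and 4.26-fold over the lines (adjusted p = 0.000208 and 8.97e-05).

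The B cell genes split evenly, with 2 of 4 higher in tumours than in both lines, against 12.0% of all genes. Pou2af1, a coactivator of immunoglobulin genes, read 6.40, 5.96, 7.68 and 6.03 in the tumours, against 4.22 and 4.09 in co-culture, 4.73, 3.93 and 4.99 in the epithelial line and 3.85, 3.51, 3.89 and 3.79 in the fibroblastic line. It was 3.92-fold and 6.76-fold over the lines (adjusted p = 0.00195 and 8.44e-05), with tumour 3 well above the other tumours. Ms4a1, the B cell antigen CD20, read 5.35, 4.46, 4.39 and 4.90 in the tumours, against 4.10 in each co-culture array, 3.86, 3.61 and 3.95 in the epithelial line and 4.08, 3.37, 3.97 and 3.92 in the fibroblastic line. Its lowest tumour was 0.28 above the highest culture array, and the difference was 1.95-fold and 1.92-fold over the lines. Without tumours 1 and 4 its call over the epithelial line was lost (0.62, adjusted p = 0.0643). Ms4a1 was not called against co-culture (0.67 ± 0.28, adjusted p = 0.0892) except after median centring (0.87, adjusted p = 0.0364).

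Cd79b, a signalling chain of the B cell receptor, read 5.62, 5.64, 5.62 and 5.64 in the tumours, 5.36 and 5.24 in co-culture, and 5.31 to 5.78 in the lines. It was called over neither line (0.04 ± 0.13 and 0.23 ± 0.12), and quantile normalization placed it below the epithelial line at -0.46. Median centring instead called it higher than in the fibroblastic line (0.42, adjusted p = 0.00728) and co-culture (0.53, adjusted p = 0.0131). Blk, a kinase of B cells, read 5.26 to 5.51 in tumours and 4.57 to 5.43 in culture and was called over neither line as deposited, but over the epithelial line after median centring (0.56, adjusted p = 0.0441). Of 14 other B and plasma cell genes measured, 8 were higher in tumours than in both lines, against 12.0% of all genes. Jchain, the joining chain of secreted antibodies, read 6.37 to 7.69 in tumours and 4.13 to 5.00 in culture. Btk, a kinase of B and myeloid cells, read 5.80 to 6.43 in tumours and 4.29 to 5.05 in culture. Fcer2, the low-affinity IgE receptor, was called too, but read 8.14 in the fibroblastic co-culture array, within its tumour range of 7.49 to 8.67.

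Over the tumours, levels were widest apart for Cd69, Gzma and Gzmb. Gzma spanned 2.34, Cd69 2.38, Gzmb 1.86 and Prf1 1.24 on the log2 scale over the 4 tumours, whereas Il2rg spanned 0.22, Icos 0.29 and Cd2 0.16. The median SD over the tumours was 0.22 for the lymphocyte genes and 0.18 for all genes. Gzma, Gzmb, Prf1 and Cd69 shared one order, lowest in tumour 1, then tumour 2, tumour 4 and highest in tumour 3. The same order held in 4.02% of all genes, against 12.1% of the 33. It was picked out after the values were seen and is given as a description. The other granule and NK receptor genes did not share it: Gzmm, Nkg7 and Klrd1 read highest in tumour 4 and Klrk1 in tumour 1. Cd8a and Cd8b peaked in tumour 2, and the CD3 genes in tumour 4. Tumour 4 held the highest level of 15 of the 33 genes and the lowest of 2, against the highest of 3886 and the lowest of 3213 of the 14217 genes. Tumour 3 held the lowest of 12 of the 33, against 2850 of all genes. Tumour 4 also read highest for 11 of 20 macrophage genes, 8 of 11 endothelial genes, 7 of 8 mast cell genes and 14 of 20 hepatocyte genes. Hepatocyte transcripts, lowest in tumour 2, did not follow the order of Gzma, Gzmb, Prf1 and Cd69. With 4 tumours no relation between them was tested.

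**Figure D4:**
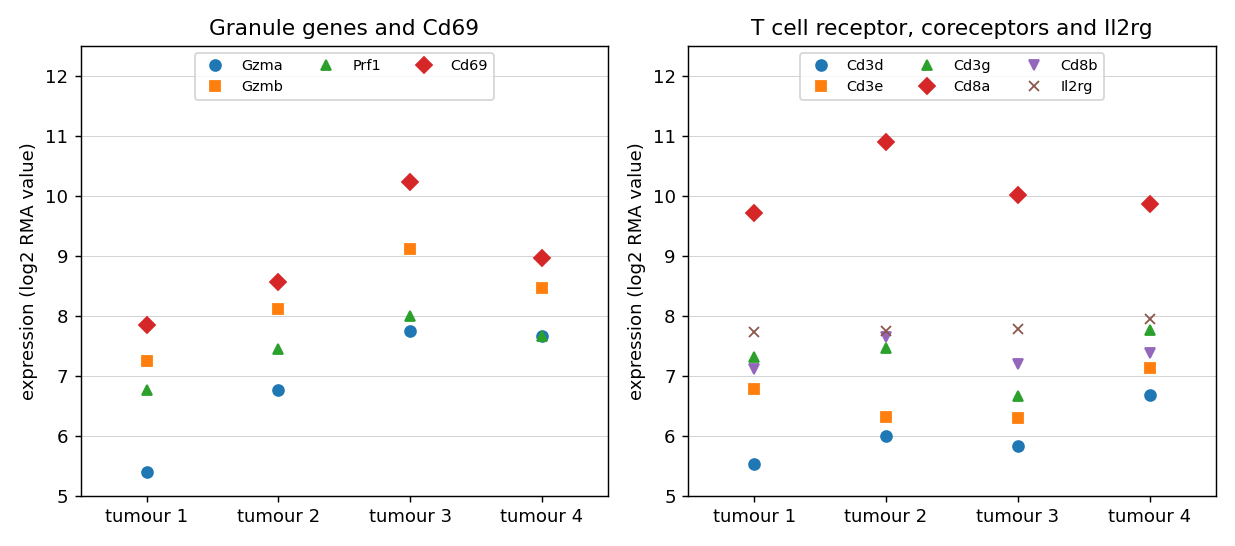
Levels on the log2 RMA scale (vertical axis) in each of the 4 tumours (horizontal axis) for Gzma, Gzmb, Prf1 and Cd69 on the left and for CD3, CD8 and Il2rg genes on the right. The genes on the left are all lowest in tumour 1 and highest in tumour 3, while Cd8a peaks in tumour 2 at 10.90 and Il2rg stays between 7.73 and 7.95.

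Against the 2 co-culture arrays, 26 of the 33 genes were higher in tumours and none was lower, beside 11.7% higher and 21.0% lower of all genes. Set against a single co-culture array, 22 were higher than the epithelial and 23 higher than the fibroblastic one. The median difference was 1.60 for the lymphocyte genes and -0.06 for all genes. Il2rg was 16.9-fold and Cd8a 41.7-fold higher in tumours than in co-culture. Of the 26 genes higher than both lines, Cd247 and Ms4a1 were not called here, and Cd5 and Cd69 were called here without being called over the epithelial line. The Cd69 call (3.90 ± 1.25, adjusted p = 0.0359) was lost without tumour 3, without tumour 4 or against either co-culture array alone. Each co-culture label has 1 array, so its spread was taken to be that of the replicated groups.

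No lymphocyte gene passed the threshold between a co-culture array and its line in the fit of the cultures. In limma's fit of the cultures, 0 of 33 genes were called between the epithelial co-culture array and the epithelial line, against 7.24% of all genes, with 1 gene at unadjusted p under 0.05. Between the fibroblastic co-culture array and the fibroblastic line 0 were called, against 8.41%, with 0 at unadjusted p under 0.05. The difference between these differences was called for 0 genes, against 8.43%, with 3 at unadjusted p under 0.05. In all these comparisons a changed share of cell types and a change within cells cannot be told apart, since both co-culture arrays are mixed. For the 12 epithelial genes the median was 6.39 between the epithelial and fibroblastic lines and -6.29 in the difference between differences. For the 12 fibroblast genes it was -6.41 and 6.13. Differences in epithelial co-culture ran between -1.22 for Cd5 and 0.52 for Cd3g, and in fibroblastic co-culture between -0.41 for Il2rg and 0.86 for Lck. Cd5 in epithelial co-culture (-1.22 ± 0.38, adjusted p = 0.101) was called in a single fit of all 13 arrays (adjusted p = 0.0459) and after quantile normalization (adjusted p = 0.0497). Since both co-culture arrays hold both cell types, a lower Cd5 level there and a share of fibroblastic cells cannot be told apart.

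Between the lines, 5 of 33 genes were called, all higher in the epithelial line, against 37.4% of all genes in either direction. They were Cd5 (1.44 ± 0.25, adjusted p = 0.00285), Lck (0.85 ± 0.26, adjusted p = 0.0336), Pou2af1 (0.79 ± 0.25, adjusted p = 0.0421), Gzmm (0.56 ± 0.15, adjusted p = 0.0227) and Gzma (0.43 ± 0.13, adjusted p = 0.0372). Cd5 kept its call without each array in turn and with a replicate block (adjusted p = 0.0144). Each of the other 4 lost it without at least 1 array, and 1 to 3 genes in all were called when an array was left out.

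Other genes of T and NK cells, outside the 33, were set beside them. Of 27 further T and NK cell genes measured out of 46 listed, 11 were higher in tumours than in both lines, against 12.0% of all genes. The mean level of the 27 was 5.37 to 5.49 in tumours and 4.70 to 5.08 in culture. Fgl2, a prothrombinase that T cells and macrophages make, read 8.28 to 8.78 in tumours and 4.44 to 6.90 in culture. Bcl11b, a T lineage factor, read 6.35, 6.47, 6.66 and 5.57 in the tumours and at most 4.90 in culture. Xcl1, a chemokine of activated CD8 T and NK cells, read 6.26, 6.28, 5.77 and 6.81 in the tumours and at most 5.54 in culture. All 3 were set apart from every culture array. Lower than in the epithelial line were 3 of the 27, against 33.2% of all genes: Gata3, Cxcr3 and Eomes. Gata3, a T helper lineage factor that epithelial and stromal cells also express, read 5.54 to 6.29 in tumours and 6.84 to 8.96 in culture, and was lower than in both lines (-2.34 and -2.12, adjusted p = 0.00162 and 0.00127). Cxcr3, a chemokine receptor of T cells, read 5.16 to 5.73 in tumours and 7.65, 6.93 and 6.44 in the epithelial line (-1.49, adjusted p = 0.00102). Eomes read 4.84 to 5.40 in tumours and 6.94, 6.53 and 6.13 in the epithelial line (-1.38, adjusted p = 0.000348). Both were higher than in the fibroblastic line (1.21 and 0.92). Ifng, interferon gamma, read 3.65 to 3.79 in tumours and 3.36 to 3.64 in culture and was called over the epithelial line only (0.28, adjusted p = 0.0448). Gata3, Cxcr3, Eomes and Ifng were named after their values were seen.

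Of 21 chemokines and growth cytokines that act on T and NK cells, 10 were higher in tumours than in both lines. Over all genes the share was 12.0%. Cx3cl1 was lower than in the epithelial line (-2.55, adjusted p = 0.0194) and Il15 lower than in the fibroblastic line (-1.11, adjusted p = 0.00333). Cxcl9, an interferon-induced ligand of CXCR3, a chemokine receptor of T cells, read 7.86, 8.12, 6.82 and 8.35 in the tumours and at most 5.23 in culture. Il18, which drives interferon gamma in T and NK cells, read 8.96 to 10.12 in tumours and at most 6.28 in culture. Cxcl13, which attracts B cells, read 10.46 to 12.00 in tumours, but up to 10.67 in culture. Among 11 checkpoint ligands and costimulatory partners 5 were higher than in both lines, against 12.0% of all genes. Pvr and Nectin2 were lower than in the epithelial line (-1.06 and -1.14, adjusted p = 0.0291 and 0.00236). Cd276 was lower than in the fibroblastic line (-1.78, adjusted p = 0.00247). Icoslg, the ligand of ICOS, read 6.69 to 7.73 in tumours and at most 5.67 in culture. Lgals9, a ligand of inhibitory receptors, read 8.43 to 9.22 in tumours and at most 7.99 in culture. Tnfsf9, the 4-1BB ligand, read 6.18 to 6.53 in tumours, below its 8.53 and 8.05 in co-culture.

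Markers of other host cells were compared in the same way, beside 12.0% of all genes higher in tumours than in both lines. Pan-leukocyte genes were higher than in both lines in 15 of 16, led by Cd53, Lcp1 and Itgb2. In 13 of these 16 every tumour lay above every culture array. Cd48 read 10.61 to 11.28 in tumours, but 10.33 to 10.67 in the fibroblastic line. Rac2 read 9.05 to 9.29 in tumours, but 10.28 in epithelial co-culture. Cd53 read 10.64 to 11.14 in tumours and up to 6.26 in culture, in fibroblastic co-culture. Endothelial genes were higher than in both lines in 9 of 11, led by Emcn, Kdr and Lyve1. Hepatocyte genes were higher in 20 of 20, led by Alb, Fgg and Fga, neutrophil genes in 4 of 6 (S100a8, Csf3r, Cxcr2), mast cell genes in 4 of 8 (Mcpt1, Cpa3, Tpsb2) and erythroid genes in 1 of 5 (Hbb, 9.22 to 11.49 in tumours and at most 7.06 in culture). The genes of the lines themselves gave other counts. Of 12 fibroblast genes, 12 were higher than in the epithelial line, while 9 were lower and 2, Lum and Dcn, higher than in the fibroblastic line. Of 12 epithelial genes, 6 were lower than in the epithelial line and 12 higher than in the fibroblastic line. The distance between 3' and 5' probe sets of beta-actin, which grows as RNA degrades, was 0.61 to 0.75 in tumours, 0.85 to 0.96 in co-culture, 0.86 to 1.47 for the epithelial arrays and 1.05 to 2.65 for the fibroblastic arrays. Its part in the differences was not tested.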

How the data were processed

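Total RNA was extracted with Trizol and biotin-labelled cRNA was hybridised to Affymetrix arrays, per the labels' protocols. The deposited values are log2 expression values made by the authors with RMA, a method that corrects background, normalizes across arrays and summarises probes, per the submitters' processing notes; the sources used here give neither its version nor which arrays were normalized with each other. That the scale is log2 was read off the range of the values, 2.94 to 14.69. RMA draws low signals together, so differences of dim probe sets are understated. Precision is limited by how many arrays there are.

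Of 31099 probe sets, 57 were controls, 20826 named 1 gene, 436 several and 9780 none. Symbols were updated through RefSeq by Entrez identifier (20758) or accession (2) and kept otherwise (66). Where a gene had several probe sets, as 8 of the 33 members did, the one with the highest mean was used, and no dim probe set was filtered.

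Group means were compared with limma 3.58.1 in R 4.3.3 (lmFit, eBayes, two-sided, Benjamini-Hochberg over 14217 genes, called at adjusted p under 0.05). Tumours and lines alone formed a fit of 11 arrays, cultures a fit of 9, and the tumour to co-culture comparison used all 13. The procedure was tested on simulated data. Tables came from pandas 2.3.3 and numpy 2.4.6, and plots were drawn with matplotlib 3.10.9 in Python 3.11.15. No batch is given in the labels.

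The members and lists were chosen with earlier results of these data known. Values on every array are given for up to 3 members per role group with the largest difference over both lines and for members that were called between lines, and up to 3 genes are named per other list. Cd5, Cd28, Cd69, Ctla4, Cd79b and Il2ra were added because they were exceptions. So were Gata3, Ifng, Cxcr3, Eomes, Cd48, Rac2, Cx3cl1, Il15, Pvr, Nectin2 and Cd276 of the other lists. The other lists (measured of listed genes) were other T and NK (27 of 46), other B and plasma (14 of 26), pan-leukocyte (16 of 21), chemokine and cytokine (21 of 23), checkpoint (11 of 18), macrophage (20 of 24), neutrophil (6 of 9), mast (8 of 9), endothelial (11 of 13), hepatocyte (20 of 20), erythroid (5 of 10), epithelial (12 of 12) and fibroblast (12 of 12). Also tried were a fit that holds all arrays, quantile normalization, median centring, the 0.3333 of the genes with the lowest means left out, the mean of a gene's probe sets or each on its own, trend and robust moderation, stricter limits, a replicate block, each array left out and each co-culture array alone; tumours 1 and 4 left out and tumour 2 alone were added after the data were seen.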

Additional observations from a re-analysis of the deposited data

Results flagged for a closer look

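Of 66 groups of 4 arrays (tumours and fibroblastic line, 33 genes each), 4 held an array far from the other 3, and chance alone gives about 1 in 20. Icos in tumour 1 read 7.34, with the other tumours at 7.05 to 7.08. Klrk1 in tumour 4 read 6.75, with the others at 6.90 to 6.93. Cd28 in fibroblastic array 4 read 4.65, with the others at 4.98 to 5.02, and Ccl5 in fibroblastic array 3 read 6.38, with the others at 5.68 to 5.74. The epithelial line has 3 arrays and was not examined in this way, so the Cd69 level of 9.66 on epithelial array 3 is not among them.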

How the results depend on the processing

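The count of genes higher than both lines was 19 to 29 under the alternatives run on all 33 genes, and 25 to 28 with an array left out; over the epithelial line it was 19 to 30, over the fibroblastic line 23 to 31 and over co-culture 19 to 31. Without the 0.3333 of the genes with the lowest means, only 6 of the 33 remained in the fit, and 6 were called in each of these 4 comparisons; 2 of them differed between the lines. The count of 5 genes that differed between the lines became 1 at adjusted p under 0.01, 1 at a 2-fold limit, 2 with a replicate block and 1 to 3 with an array left out. In epithelial co-culture the count of 0 became 1 in a single fit of 13 arrays and 1 after quantile normalization (Cd5 in both). Quantile normalization turned Cd79b against the epithelial line to -0.46 and Cd28 against the fibroblastic line to -0.11; the cause was not tested. Centring on the median moved the median of all genes against the epithelial line to 0.03, beside -0.17 as deposited, and upward calls over all genes against co-culture to 58%, beside 35.8%. The replicate block gave 28 genes over the epithelial line, 30 over the fibroblastic line and 28 over both. In their deviations, same-numbered arrays of tumours and the epithelial line correlated at -0.148 to 0.115, and other numbers at -0.121 to 0.117. Tumours and the fibroblastic line gave 0.011 to 0.113, and other numbers -0.081 to 0.026. Between the lines, numbers 1 to 3 gave 0.143, 0.1 and -0.038, and other numbers -0.194 to 0.196. The numbers were not taken as pairs, and these values do not settle whether they are. No block could be fitted for co-culture, which has no number. Among genes whose calls changed with the scaling were Cd247, Lat, Cd28, Il2ra and Cd79b, and 4 tumours limit any statement on differences between them.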
